A study of Mus musculus with 18 samples.

Results

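Interferons are the cytokines of antiviral and antimicrobial defence, and 35 genes that they induce were followed across 18 arrays of mouse liver. The list holds sensors of foreign nucleic acid, transcription factors, antiviral effectors, defence GTPases, genes of antigen presentation and chemokines. A gene was taken where a probe set carried its symbol alone, and the probe set with the highest mean over all arrays stood for it. Such a probe set was found for 33 of the 35 genes. Oasl2 lay below the filter on dim probe sets (mean log2 signal of 4.01), which left 32 members among the 13228 genes tested, of 18193 genes with a probe set. Isg15 was measured only by a probe set shared with another symbol, and Ifi44 was not listed.

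The livers came from wild-type CD1 mice, an outbred strain, on chow or on a high-fat diet (HFD) in which fat gave 60% of the calories. CMPF is a metabolite of furan fatty acids found in plasma. Each of 2 models had 3 groups of 3 arrays. In the prevention model, labelled Control-Chow, Control-HFD and CMPF-HFD, vehicle or CMPF at 6 mg/kg per day was given for 1 week and the mice then ate HFD for 4 weeks. In the reversal model, labelled Chow-Control, HFD-Control and HFD-CMPF, HFD was eaten for 6 weeks, after which vehicle or the same dose of CMPF was injected for 2 weeks. What the chow groups were injected with, and whether the 3 arrays of a group are 3 animals, is not stated in the labels, so every p measures the spread between arrays.

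Type I interferons signal through the receptor Ifnar1 and Ifnar2, the kinases Jak1 and Tyk2, and a complex with Stat2 and Irf9 that binds the interferon-stimulated response element. Interferon gamma signals through Ifngr1 and Ifngr2 to the gamma-activated site in promoters, and it induces Irf1, the immunoproteasome, peptide transport to class I molecules, the guanylate-binding proteins and Cxcl9. In liver, hepatocytes, Kupffer cells and endothelial cells all respond to interferon, and immune cells hold some of these products, such as the immunoproteasome, without a stimulus.

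In the prevention CMPF group, array 2 could hardly be told from array 3: 0 genes were over 2-fold apart, where the fewest in the remaining 152 pairs of arrays was 115. Their mean was used as a single sample, which leaves n = 2 there. Array means were 5.08 to 5.10 in the prevention model and 5.25 to 5.26 in the reversal model, so levels are set side by side only within a model. The 7 hepatocyte markers were bright in every sample, with a mean of 13.5 to 13.9 on the log2 scale. RNA length was followed by the log2 excess of 3' over 5' signal of Gapdh and beta-actin (the 3' to 5' index), larger in shorter RNA. On prevention HFD arrays it averaged 2.84 ± 0.303 against 1.43 ± 0.512 on the chow arrays of that model (SD, n = 3 each; exact permutation test, two-sided, p = 0.1, the smallest that 3 against 3 allows). The index was 3.15 ± 0.566 in reversal chow and 2.62 ± 0.969 in reversal HFD (SD, n = 3 each).

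The members moved together in single arrays more than between groups. For each sample, a member's deviation was taken as its log2 value minus its median over the samples of the same model. In the array prevention HFD 1, 12 of the 32 tested members were over 2-fold above that median, where 1.38% of all genes tested were, and the median deviation of the members was 0.86. The largest were Cxcl9 at 3.87, Gbp3 at 3.80, Gbp2 at 3.69 and Igtp at 2.33. In prevention chow 1, 10 members were over 2-fold above (2.05% of all genes), with a median of 0.64. Between them these arrays, 1 on HFD and 1 on chow, held the highest value of the prevention model for every tested member. It was 20 members in the first and 12 in the second, where 13.1% and 18.3% of all genes had their highest value. Over all genes tested, the deviations of these arrays from their group means were correlated (r = 0.44).

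In the reversal model the members were high in 3 arrays. In reversal HFD 1, 10 members were over 2-fold above (1.31% of all genes), with a median of 0.68 and with Cxcl9 and Cxcl10 both at 2.21. In reversal HFD 2, Usp18 (1.43) and Psmb9 (1.17) were over 2-fold above (0.476% of all genes), and the median was 0.45. Reversal chow 2 had a different pattern: 7 members were over 2-fold above (0.726% of all genes), namely Irf7 (1.87), Rsad2 (1.71), Rtp4 (1.56), Ifit1 (1.55), Dhx58 (1.51), Xaf1 (1.17) and Usp18 (1.02), while Psmb9 (-2.08) and Psmb8 (-1.16) were over 2-fold below (7.08% of all genes). The number of members below was no larger than that share of all genes. That array also stood apart over all genes, with a median correlation of 0.947 with the other arrays of its model, against 0.963 to 0.983 for the others.

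At the other end, prevention HFD 3 was the lowest of its group for 26 of the 32 members and reversal HFD 3 for 28. The share of all genes that were lowest there was not computed. In prevention HFD 3, 2 members were over 2-fold below (0.643% of all genes), and in prevention chow 2 this was 1 member, Cxcl9 at -1.59 (0.265% of all genes). With CMPF, only Cxcl9 was over 2-fold from its median, at 1.56 in reversal CMPF 3, where 0.703% of all genes were over 2-fold above. The heat map of deviations by sample shows these arrays as columns.

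**Figure D1:**
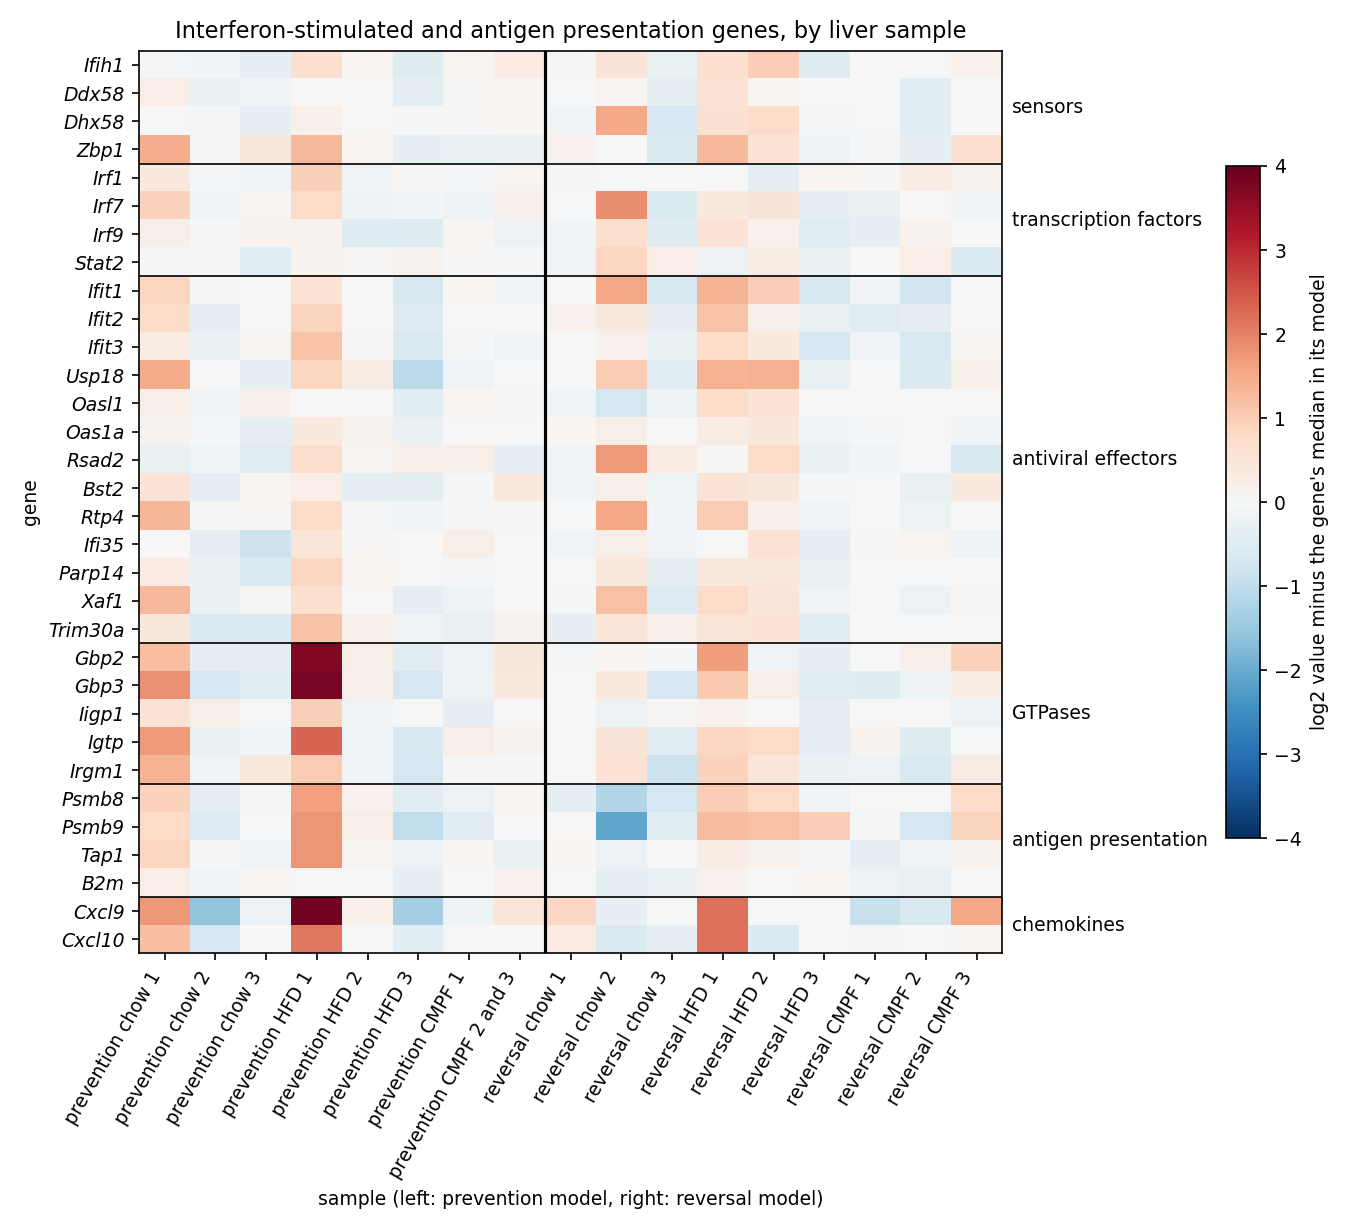
Deviation of the 32 tested members (rows, ordered by role) in the 17 samples (columns), as log2 value minus the member's median over the samples of its model; prevention CMPF 2 and 3 are averaged. The columns prevention chow 1, prevention HFD 1 and reversal HFD 1 are high over most rows, and reversal chow 2 is high for Irf7, Rsad2 and Rtp4 and low for Psmb8 and Psmb9.

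Because groups held both high and low arrays, the spread within groups was wide. The residual SD of the tested members had a median of 0.53, against 0.20 for all genes tested, and 21 of the 32 (65.6%) lay above the 90th percentile of all genes. It ran from 0.165 for B2m to 1.59 for Cxcl9. The plot of members and markers by sample sets the members beside 9 markers of Kupffer cells and macrophages (Clec4f, Vsig4, Timd4, Cd5l, Marco, Adgre1, Csf1r, Cd68 and C1qa). The median deviation of the markers was 1.47 in prevention chow 1 (8 of 9 over 2-fold above), 1.19 in prevention HFD 1 (7 of 9) and 0.84 in reversal HFD 1 (3 of 9). It was -0.82 in reversal chow 2 and -0.05 in reversal HFD 2, where members were high without the markers. Of the NK cell markers, the 3 above the filter had median deviations of 0.78, 0.69, 0.50 and 0.36 in prevention chow 1, prevention HFD 1, reversal chow 2 and reversal HFD 1. Their mean signals, 4.14 to 4.25, lay just above the filter at 4.01, and 3 further NK cell markers lay below it. The 4 tested monocyte and neutrophil markers were at 0.78 in prevention HFD 1 (2 of 4 over 2-fold above) and 0.41 in reversal HFD 1, and also at 0.45 and 0.44 in reversal CMPF 2 and reversal CMPF 3. The T cell markers stayed between -0.28 and 0.23 in every sample. In bulk tissue, fewer cells of a type and less RNA per cell cannot be told apart, and the part of these cells in the members' values was not tested.

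**Figure D2:**
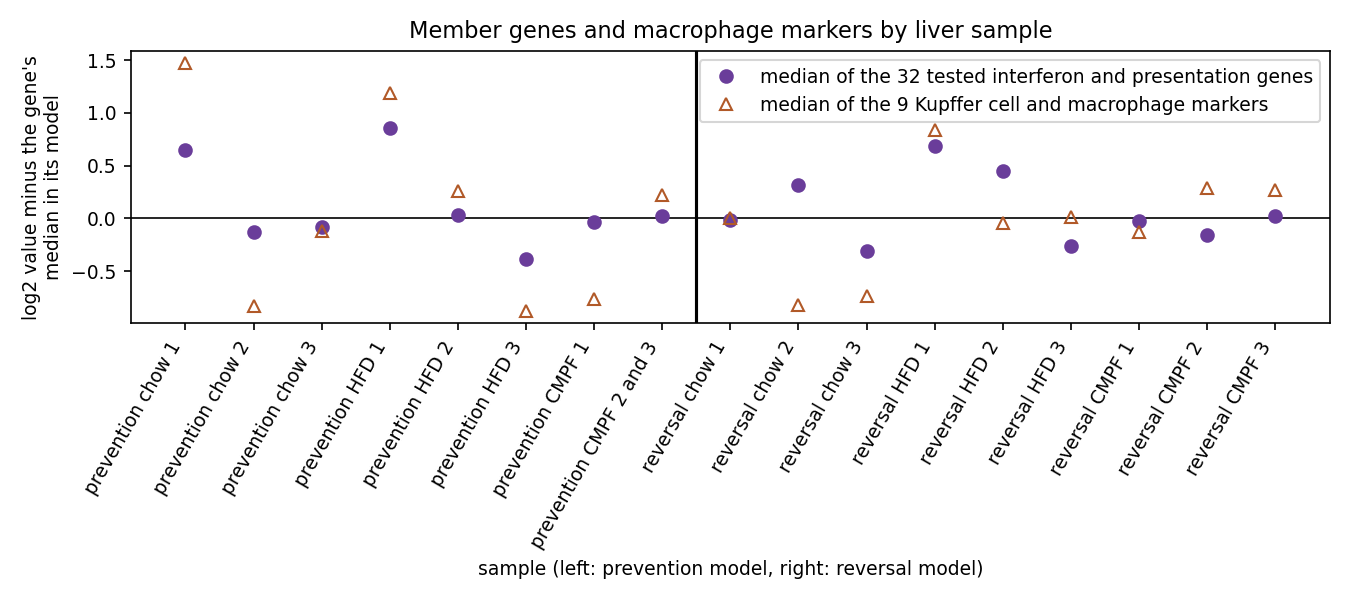
Median deviation (log2) of the 32 tested members and of the 9 Kupffer cell and macrophage markers in each of the 17 samples. Both are high in prevention chow 1, prevention HFD 1 and reversal HFD 1; in reversal chow 2 the members are at 0.31 and the markers at -0.82.

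Against this spread, 1 member passed the test in any comparison. Oasl1, a protein related to the oligoadenylate synthetases that lacks their enzyme activity, rose with HFD in the reversal model by 0.79 ± 0.189 on the log2 scale (SE, 95% interval 0.39 to 1.20), which is 1.73-fold (limma, adjusted p = 0.0426). Over all genes tested, 2.45% passed in that comparison and 2.17% rose. No member passed in the other 5 comparisons of groups (limma, adjusted p under 0.05). The difference of the HFD effect between models also passed for Oasl1, and for no other member.

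In the prevention model, HFD moved 0 of the 32 tested members past the threshold, where 5.57% of all genes passed. Before adjustment, 1 member had p under 0.05 (24.8% of all genes): Ifi35, which forms cytoplasmic complexes after interferon, at 0.58 ± 0.242 (SE, adjusted p = 0.161). Values were above 0 for 20 of the 32 members (50.2% of all genes), with a median of 0.17 against 0.00 for all genes, from -0.49 for Irgm1 to 1.01 for Gbp2. Rsad2, the antiviral enzyme viperin, was the only member whose HFD arrays all lay above the chow arrays (12% of all genes), at 0.63 ± 0.389 (SE, adjusted p = 0.336). With the 3' to 5' index, which is higher on these HFD arrays than on chow, as a covariate, 28 of the 32 were above 0 and the median was 0.30. Without prevention HFD 1 the values were above 0 for 7 members and the median was -0.32. It was -0.03 without prevention chow 2, 0.06 without prevention chow 3, 0.29 without prevention chow 1 and 0.33 without prevention HFD 3.

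CMPF against vehicle on HFD in the prevention model called 0 members, 0 of them also before adjustment (0% and 8.01% of all genes). Values were below 0 for 24 of the 32 (46.8% of all genes), with a median of -0.21 against 0.02 for all genes, from -1.05 for Gbp2 to 0.34 for Bst2. Groups did not overlap for Ddx58, which was higher (19.7% of all genes), and for Stat2, which was lower (11.1% of all genes). On another probe set of Stat2 they overlapped. This comparison uses the same HFD arrays as the diet comparison. Without prevention HFD 1, values were above 0 for 25 members and the median was 0.17.

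CMPF on HFD against chow in that model called 0 members, with 0 before adjustment (0% and 9.99% of all genes). Values were below 0 for 21 of the 32 (49.7% of all genes), and the median was -0.11; it was 0.14 without prevention chow 1 and 0.25 with the 3' to 5' index as a covariate. Ifih1, Dhx58 and Ifi35 were higher without overlap (17.3% of all genes), and Zbp1 and Iigp1 were lower without overlap (14.4% of all genes). On further probe sets of Ifi35, Zbp1 and Iigp1 above the filter the groups overlapped.

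In the reversal model, HFD called Oasl1 alone, and 4 members had p under 0.05 before adjustment (22.4% of all genes). Values were above 0 for 26 of the 32 (54.9% of all genes), with a median of 0.28 against 0.03 for all genes, from -0.44 for Rsad2 to 1.97 for Psmb9. Groups did not overlap for 4 members, all higher on HFD (14.7% of all genes): Oasl1, Psmb8, Psmb9 and B2m. On another bright probe set of B2m they overlapped. The median was 0.10 under quantile normalisation, 0.17 under cyclic loess and 0.09 with the 3' to 5' index as a covariate (23 of 32 above 0). Without reversal HFD 1, values were above 0 for 16 members and the median was 0.02, and it was 0.14 without reversal HFD 2, 0.10 without reversal chow 3, 0.45 without reversal chow 2 and 0.48 without reversal HFD 3. Without both reversal HFD 1 and reversal HFD 2, they were above 0 for 7 members and the median was -0.33.

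CMPF against vehicle on HFD in the reversal model called 0 members (0.0378% of all genes), and 1 had p under 0.05 before adjustment (4.79% of all genes): Oasl1, at -0.43 ± 0.189 (SE, adjusted p = 0.974). Values were below 0 for 31 of the 32 members (52.5% of all genes), Irf1 being the exception at 0.27. The median was -0.36 against -0.01 for all genes, the lowest value was -1.09 for Psmb9, and no adjusted p was below 0.974. Psmb9 and B2m were lower without overlap (5.03% of all genes), though on another bright probe set of B2m the groups overlapped. The HFD arrays are again shared with the diet comparison. Values were below 0 for 26 members without reversal HFD 1, and without both reversal HFD 1 and reversal HFD 2 they were above 0 for 25 members, with a median of 0.13.

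CMPF on HFD against chow in the reversal model called 0 members (2% of all genes). Before adjustment 1 had p under 0.05 (18% of all genes), Rsad2 at -0.88 ± 0.389 (SE, adjusted p = 0.249). Its groups overlapped, and reversal chow 2 was at 10.16 where the other chow arrays were at 8.33 and 8.75. A further probe set of Rsad2 read 6.08, 6.02 and 5.69 with CMPF and 5.82, 5.75 and 6.08 on chow. The remaining one, dim, read 4.18, 3.67 and 4.12 with CMPF and 4.17, 4.73 and 4.05 on chow. Values were below 0 for 23 of the 32 (45.1% of all genes), with a median of -0.07. The median was 0.10 without reversal chow 2 and 0.12 with array weights, and -0.20 under quantile normalisation (6 of 32 above 0), -0.16 under cyclic loess, -0.18 with the 3' to 5' index as a covariate (5 of 32) and -0.21 without reversal chow 3. Irf1, Oasl1 and Psmb8 were higher without overlap (10.7% of all genes).

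The HFD effect differed between models for Oasl1, by 1.03 ± 0.267 (SE, adjusted p = 0.0318), reversal minus prevention. Over all genes 11% passed this test, 8.84% with a higher effect in the reversal model. Before adjustment 2 members had p under 0.05 (31% of all genes), the second being B2m at 0.52 ± 0.195 (SE, adjusted p = 0.0939). The CMPF effect differed between models for 0 members, also before adjustment (0% and 7.92% of all genes).

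**Figure D3:**
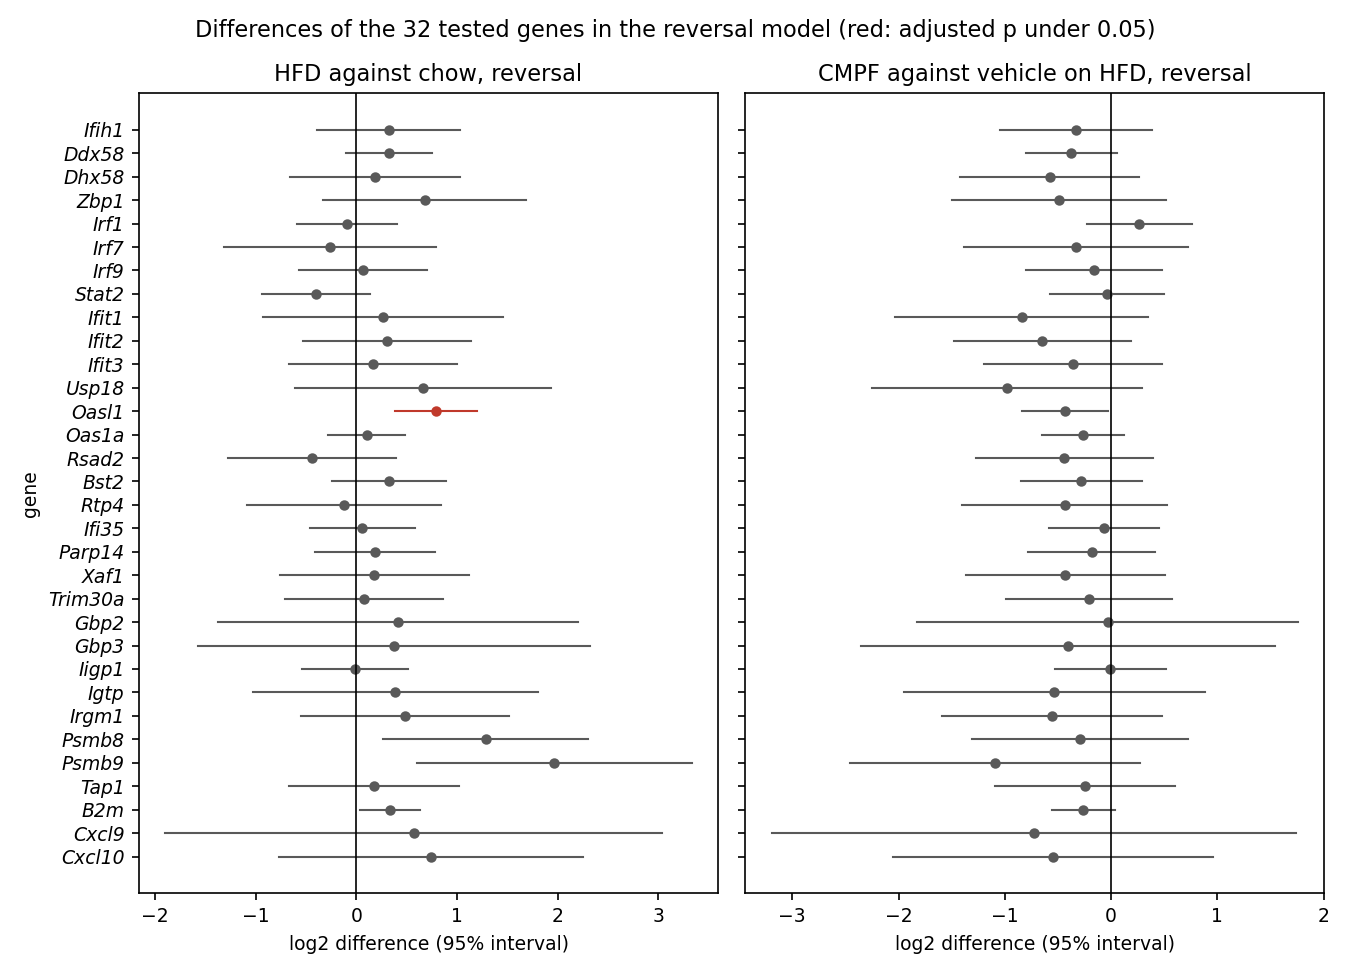
Log2 difference with its 95% interval (limma) for each of the 32 tested members in the reversal model, HFD against chow and CMPF against vehicle on HFD; red marks an adjusted p under 0.05. Oasl1 at 0.79 on HFD is the one red point, and 31 of 32 values lie below 0 for CMPF with intervals that include 0 except that of Oasl1.

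Among the 4 sensors, Ifih1 and Ddx58 are cytoplasmic helicases that bind viral RNA, Dhx58 regulates them, and Zbp1 binds nucleic acid in the Z form. Ddx58 had the smallest p of the group. Ddx58 read 7.58, 7.004 and 7.18 on chow, 7.27, 7.32 and 6.93 on HFD, and 7.35 and 7.38 on HFD after CMPF (log2, prevention model). It read 7.42, 7.56 and 7.08 on chow, 8.04, 7.54 and 7.45 on HFD, and 7.45, 6.98 and 7.47 on HFD with CMPF in the reversal model. The prevention CMPF samples lay just above the HFD arrays, and in the reversal model reversal HFD 1 was the highest and groups overlapped. The CMPF effect was 0.19 ± 0.223 (SE, adjusted p = 0.895) in prevention and -0.37 ± 0.2 (SE, adjusted p = 1) in reversal, and the smallest p was that of their difference, -0.56 ± 0.3 (SE, adjusted p = 0.686). The HFD effect in reversal was 0.32 ± 0.2 (SE, adjusted p = 0.345).

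Dhx58 had the widest range of the sensors. Dhx58 read 6.01, 5.93 and 5.63 on chow, 6.20, 5.99 and 5.93 on HFD, and 6.04 and 6.07 on HFD after CMPF in the prevention model, a range of 0.57. Its reversal values were 5.98, 7.59 and 5.41 on chow, 6.69, 6.83 and 6.03 on HFD, and 6.09, 5.65 and 6.07 on HFD with CMPF, a range of 2.17. The highest of these, reversal chow 2, was a chow array, and reversal HFD 1 and reversal HFD 2 came next. The HFD effect in reversal was 0.19 ± 0.394 (SE, adjusted p = 0.805). All 4 sensors had values above 0 for HFD in the reversal model, from 0.19 to 0.68 for Zbp1, and all 4 were below 0 for CMPF, from -0.58 to -0.33. Another probe set of Zbp1 read 0.75 ± 0.508 (SE) for HFD in prevention, where the one used read -0.27.

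The 4 transcription factors are Irf1 and Irf7, which drive interferon and its target genes, and Irf9 and Stat2, which act in the complex on the response element. Irf7 read 7.48, 6.43 and 6.66 on chow, 7.32, 6.36 and 6.45 on HFD, and 6.36 and 6.77 on HFD after CMPF in the prevention model. In the reversal arrays it read 6.54, 8.39 and 5.95 on chow, 6.92, 7.04 and 6.14 on HFD, and 6.22, 6.52 and 6.37 on HFD with CMPF. In each model a chow array was the highest, prevention chow 1 and reversal chow 2, and groups overlapped. The HFD effect on Irf7 was -0.15 ± 0.492 (SE, adjusted p = 0.884) in prevention and -0.26 ± 0.492 (SE, adjusted p = 0.783) in reversal.

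Stat2 had the smallest p of these factors. Stat2 read 6.29, 6.43 and 5.94 on chow, 6.53, 6.42 and 6.52 on HFD, and 6.31 and 6.34 on HFD after CMPF in prevention. Its values were 5.82, 6.82 and 6.23 on chow, 5.73, 6.26 and 5.68 on HFD, and 5.96, 6.21 and 5.37 on HFD with CMPF in reversal. In prevention the CMPF samples lay just below every HFD array, and in reversal the highest value was again reversal chow 2. The difference of its HFD effect between models was -0.67 ± 0.353 (SE, adjusted p = 0.208). Another probe set of Stat2 read 5.37, 5.01 and 5.39 on HFD and 5.49 and 5.07 after CMPF in prevention. There the groups overlapped. For HFD in reversal 3 of the 4 factors had values below 0, and Irf9 was at 0.06.

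The antiviral effectors were the largest group, with 16 listed and 13 tested. Oasl1 read 6.54, 6.19 and 6.53 on chow, 6.32, 6.33 and 5.91 on HFD, and 6.41 and 6.28 on HFD after CMPF in the prevention model. It read 6.01, 5.46 and 5.93 on chow, 6.90, 6.70 and 6.19 on HFD, and 6.14, 6.19 and 6.17 on HFD with CMPF in the reversal model. All 3 reversal HFD arrays lay above the 3 chow arrays, reversal HFD 3 by 0.18 over reversal chow 1, and reversal chow 2 was the lowest. In prevention the groups overlapped, with an HFD effect of -0.24 ± 0.189 (SE, adjusted p = 0.476). The reversal effect stayed between 0.38 and 1.00 under the alternatives run, and its adjusted p was 0.13 without reversal chow 2, 0.0625 without reversal chow 3, 0.171 without reversal HFD 1 and 0.11 without reversal HFD 2. The call was also lost under quantile normalisation (adjusted p = 0.0659), cyclic loess (0.0566), the 3' to 5' index as a covariate (0.0534), with only the arrays of the model (0.141) and with only the 2 groups compared (0.242). No response element or gamma-activated site was found in the Oasl1 promoter window.

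Rsad2 was the effector with the largest negative HFD value in the reversal model. Rsad2 read 8.33, 8.54 and 8.18 on chow, 9.33, 8.74 and 8.88 on HFD, and 8.86 and 8.31 on HFD after CMPF in prevention. Its reversal values were 8.33, 10.16 and 8.75 on chow, 8.50, 9.23 and 8.18 on HFD, and 8.34, 8.44 and 7.79 on HFD with CMPF. Reversal chow 2 was the highest by 0.93 over the next array, reversal HFD 2. The HFD effect in reversal was -0.44 ± 0.389 (SE, adjusted p = 0.509); another probe set of Rsad2 read 0.67 ± 0.234 (SE), so the probe sets disagree in direction. In prevention the HFD effects of the 3 probe sets were 0.63, 0.33 and -0.88.

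Usp18, the protease that removes Isg15 from proteins and restrains signalling of the type I receptor, read 8.18, 6.69 and 6.31 on chow, 7.54, 6.98 and 5.63 on HFD, and 6.56 and 6.69 on HFD after CMPF in prevention. In reversal Usp18 read 6.01, 7.06 and 5.61 on chow, 7.44, 7.47 and 5.76 on HFD, and 6.04, 5.45 and 6.25 on HFD with CMPF. Prevention chow 1 was the highest of its model, and reversal HFD 1, reversal HFD 2 and reversal chow 2 stood above the other 6 reversal arrays. Its HFD effect in reversal was 0.66 ± 0.593 (SE, adjusted p = 0.516), and for CMPF it was -0.98 ± 0.593 (SE, adjusted p = 1), the lowest of the effectors. The probe set shared by Isg15, the ubiquitin-like protein, and Gm9706 read 7.81, 7.23 and 5.62 in reversal HFD, 6.03, 5.86 and 5.18 in reversal chow, and 6.24, 5.48 and 6.52 with CMPF. Its 2 highest reversal values were likewise reversal HFD 1 and reversal HFD 2.

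The remaining effectors include the Ifit proteins, which bind viral RNA, Oas1a, which makes oligoadenylates, Bst2, which tethers virions at the cell surface, and Trim30a. For HFD in reversal 11 of the 13 effectors had values above 0, with a median of 0.18. For CMPF in reversal all 13 were below 0, from -0.98 for Usp18 to -0.07 for Ifi35, and the smallest adjusted p was 0.974. For HFD in prevention 7 of the 13 were above 0. Ifi35 had probe sets that disagree: for HFD in prevention they read 0.58, 0.24 and -0.21.

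The GTPases Gbp2 and Gbp3, guanylate-binding proteins, and Iigp1, Igtp and Irgm1, immunity-related GTPases, act on the membranes of vacuoles that hold pathogens. Gbp3, Gbp2 and Igtp had 3 of the 5 largest residual SDs among the members (1.25, 1.15 and 0.909), with Cxcl9 and Cxcl10 the other two, while Iigp1 was at 0.325. Gbp3 read 8.16, 5.64 and 5.88 on chow, 10.12, 6.54 and 5.66 on HFD, and 6.10 and 6.72 on HFD after CMPF in prevention. In reversal it read 6.64, 7.04 and 5.98 on chow, 7.70, 6.88 and 6.21 on HFD, and 6.16, 6.45 and 6.95 on HFD with CMPF. In prevention the range was 4.48, which is 22.3-fold, and prevention HFD 1 lay 1.96 above the next sample, prevention chow 1; groups overlapped in both models. The HFD effect on Gbp3 was 0.88 ± 0.908 (SE, adjusted p = 0.59) in prevention and 0.38 ± 0.908 (SE, adjusted p = 0.836) in reversal.

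Gbp2 read 7.64, 6.07 and 6.08 on chow, 10.14, 6.67 and 6.03 on HFD, and 6.22 and 6.89 on HFD after CMPF in the prevention model. Its highest sample was prevention HFD 1 and its second prevention chow 1, and the HFD effect was 1.01 ± 0.835 (SE, adjusted p = 0.489). Iigp1 had the smallest p of the GTPases and a narrow range. Iigp1 read 12.56, 12.25 and 12.00 on chow, 12.97, 11.87 and 12.00 on HFD, and 11.68 and 12.00 on HFD after CMPF in prevention. Its reversal values were 12.46, 12.27 and 12.50 on chow, 12.64, 12.48 and 12.08 on HFD, and 12.49, 12.47 and 12.23 on HFD with CMPF. Both prevention CMPF samples lay below the 3 chow arrays, with -0.43 ± 0.274 (SE, adjusted p = 0.601) for CMPF on HFD against chow and -0.44 ± 0.274 (SE, adjusted p = 0.76) for CMPF against vehicle on HFD. Another probe set of Iigp1 read 11.79, 11.33 and 11.06 on prevention chow and 11.23 and 11.33 with CMPF. There the groups overlapped. For CMPF the median of the 5 GTPases was -0.44 in prevention and -0.41 in reversal, and none passed the test. All 5 were below 0 in both models, Iigp1 in reversal at -0.0057, but the direction in prevention rested on prevention HFD 1: without it Gbp2 was at 0.21, Gbp3 at 0.31, Igtp at 0.58 and Irgm1 at 0.41. Without reversal HFD 1, Gbp2 was at 0.60 and Iigp1 at 0.12 for CMPF in reversal.

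The promoters of the members were searched for the element that the complex with Stat2 and Irf9 binds. RefSeq promoter windows (GRCm38.p6, 250 bases before to 50 after each start) were matched for 29 of the 35 members; Dhx58, Zbp1, Usp18, Rtp4, Parp14 and Iigp1 were not matched. The response element was searched on both strands as GAAA, any 2 bases and GAAA, and the gamma-activated site as TTC, any 3 bases and GAA; where matches overlap, the promoter was counted once. The response element was in the window of 16 of the 29 members (55.2%), against 3.99% of the 27025 genes in the table, and before the start in 14 (48.3%, against 3.46%). It was present in all 4 GTPases with a window, in 7 of 13 effectors and in 1 of 4 genes of antigen presentation. The gamma-activated site was in 7 members (24.1%, against 9.55% of genes). Windows of 100 bases are given for the 4 members with the widest range among those that hold the element before the start. Capitals mark the element, which reads TTTC, any 2 bases and TTTC on the other strand, and each is written 5′ to 3′ along its gene. In Gbp3 matches starting 45 and 39 bases before the start overlap. In Gbp2 the element starts 59 bases before the start, in Igtp 34 and in Cxcl10 213. A match describes these letters and does not show binding.
Gbp3, chr3:142559944-142560043, plus strand: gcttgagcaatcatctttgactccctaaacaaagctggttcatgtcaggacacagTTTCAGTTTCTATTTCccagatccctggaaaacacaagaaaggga
Gbp2, chr3:142620563-142620662, plus strand: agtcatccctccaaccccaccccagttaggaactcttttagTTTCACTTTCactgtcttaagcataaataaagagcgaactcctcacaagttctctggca
Igtp, chr11:58199456-58199555, plus strand: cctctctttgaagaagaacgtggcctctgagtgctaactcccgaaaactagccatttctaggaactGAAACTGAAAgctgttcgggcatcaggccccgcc
Cxcl10, chr5:92349040-92349139, minus strand: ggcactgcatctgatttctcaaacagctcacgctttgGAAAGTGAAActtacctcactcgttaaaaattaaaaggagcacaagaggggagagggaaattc

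Of the 4 genes of antigen presentation, Psmb8 and Psmb9 are catalytic subunits of the immunoproteasome, Tap1 carries peptides into the endoplasmic reticulum, and B2m is the light chain of class I molecules. Psmb9 read 9.20, 7.89 and 8.42 on chow, 10.17, 8.65 and 7.44 on HFD, and 8.002 and 8.41 on HFD after CMPF in prevention. In reversal it read 7.67, 5.59 and 7.22 on chow, 8.90, 8.84 and 8.66 on HFD, and 7.59, 6.97 and 8.55 on HFD with CMPF. The 3 reversal HFD arrays lay between 8.66 and 8.90, above every chow and every CMPF array, while reversal chow 2 was lowest by 1.38. The HFD effect was 1.97 ± 0.635 (SE, adjusted p = 0.106), with a 95% interval of 0.61 to 3.33 and a 3.91-fold difference, and the CMPF effect was -1.09 ± 0.635 (SE, adjusted p = 1). Neither passed the test.

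Psmb8 read 7.79, 7.005 and 7.47 on chow, 9.13, 8.96 and 8.03 on HFD, and 8.16, 8.16 and 8.92 on HFD with CMPF in the reversal model. Every HFD and every CMPF array lay above the chow arrays, with 1.29 ± 0.475 (SE, adjusted p = 0.144) for HFD and 0.99 ± 0.475 (SE, adjusted p = 0.287) for CMPF on HFD against chow. B2m, which had the narrowest spread of the members, read 13.74, 13.35 and 13.46 on chow, 13.92, 13.77 and 13.87 on HFD, and 13.55, 13.45 and 13.77 on HFD with CMPF there. Its HFD arrays lay above both other groups, with 0.34 ± 0.138 (SE, adjusted p = 0.179) for HFD. On another probe set of B2m the groups overlapped. It had reversal HFD 2 at 13.44, reversal chow 1 at 13.48 and reversal CMPF 3 at 13.77. In prevention Psmb8, Psmb9 and Tap1 were highest in prevention HFD 1 and next highest in prevention chow 1. The genes Psmb8, Tap1 and Psmb9 lie next to or within 1 protein-coding gene of each other in the genome, and the windows of Psmb9 and Tap1 held neither motif, that of Psmb8 the gamma-activated site.

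Beside these 4 members, 14 of 20 listed genes of class I presentation were tested, and 3 rose with HFD in the reversal model, where 2.17% of all genes rose: H2-Q10, a class I molecule made by liver, by 1.00 ± 0.238 (SE, adjusted p = 0.0421), Tapbpl, which edits the peptides of class I molecules, by 0.89 ± 0.203 (SE, adjusted p = 0.0369), and Canx, the chaperone calnexin, by 0.66 ± 0.148 (SE, adjusted p = 0.0338). The median of the 14 was 0.63, with 12 above 0. In prevention 0 of the 14 passed for HFD (5.57% of all genes), and the difference between models (11% of all genes) passed for Canx (1.06 ± 0.209 (SE, adjusted p = 0.0188)) and Pdia3, a chaperone of class I assembly (2.66 ± 0.726 (SE, adjusted p = 0.0355)). Canx was also higher on HFD with CMPF than on chow, by 0.68 ± 0.148 (SE, adjusted p = 0.0314), where 1.61% of all genes rose. Single arrays decided these calls: the 3 calls for HFD in reversal were lost without reversal chow 2 or any 1 of the 3 HFD arrays, Canx also without reversal chow 1 and the other two without reversal chow 3. Both differences were lost without prevention chow 1, prevention chow 3 or reversal HFD 1, and that of Pdia3 also without any 1 of the prevention HFD arrays, reversal chow 2, reversal chow 3 or reversal HFD 2. With the 3' to 5' index as a covariate neither difference passed. The call of Canx on HFD with CMPF was lost without reversal chow 1, reversal chow 2 or any 1 of the CMPF arrays. Of class II presentation, 9 of 11 genes were tested and 0 passed in any comparison. Class II genes were high in the same single arrays as the members: their median deviation was 1.61 in prevention chow 1 and 1.55 in prevention HFD 1 (6 of 9 over 2-fold above in each), and 0.78 in reversal HFD 1 (4 of 9), while it was -0.45 in reversal chow 2 and -0.47 in reversal HFD 2.

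Cxcl9 and Cxcl10 are chemokines that draw T cells and NK cells through the receptor Cxcr3. Cxcl9 read 8.79, 5.48 and 6.82 on chow, 10.94, 7.26 and 5.72 on HFD, and 6.88 and 7.56 on HFD after CMPF in prevention. In reversal Cxcl9 read 7.44, 6.27 and 6.60 on chow, 8.81, 6.60 and 6.60 on HFD, and 5.73, 5.95 and 8.16 on HFD with CMPF. Prevention HFD 1 was the highest by 2.15 over prevention chow 1, the range was 5.46 (43.9-fold), and reversal HFD 1 was the highest of its model with reversal CMPF 3 next. The HFD effects were 0.94 ± 1.15 (SE, adjusted p = 0.656) and 0.57 ± 1.15 (SE, adjusted p = 0.799) in the 2 models, and another probe set read -0.08 ± 0.836 (SE) in reversal. That probe set was dim in the reversal arrays, at 3.37 to 4.29, near the filter of 4.01.

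Cxcl10 read 6.58, 4.70 and 5.41 on chow, 7.50, 5.38 and 4.94 on HFD, and 5.36 and 5.38 on HFD after CMPF in prevention. Its reversal values were 5.43, 4.56 and 4.77 on chow, 7.32, 4.55 and 5.11 on HFD, and 5.02, 5.11 and 5.21 on HFD with CMPF. In each model HFD 1 was the highest sample, and the HFD and chow groups overlapped. The HFD effects were 0.38 ± 0.703 (SE, adjusted p = 0.783) and 0.74 ± 0.703 (SE, adjusted p = 0.545), and for CMPF in reversal -0.55 ± 0.703 (SE, adjusted p = 1).

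**Figure D4:**
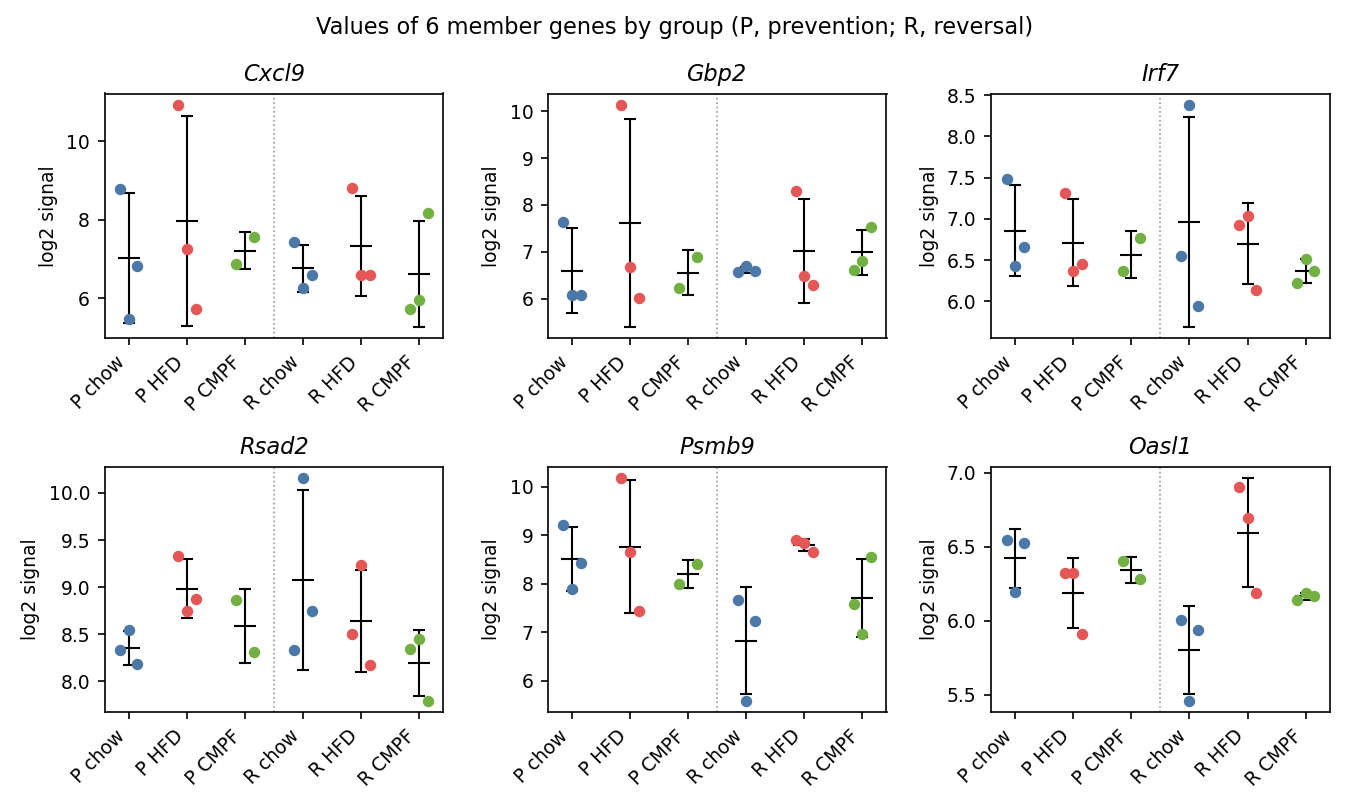
Log2 values of Cxcl9, Gbp2, Irf7, Rsad2, Psmb9 and Oasl1 in each sample by group (points), with the group mean ± SD (n = 3, and n = 2 for prevention CMPF). For Cxcl9 and Gbp2 1 prevention HFD array sets the group's spread, for Irf7 and Rsad2 the highest reversal value is a chow array, and for Psmb9 and Oasl1 the reversal HFD arrays lie above the chow arrays.

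The genes around the members were described from lists of the pathway. Of 19 interferon genes, 9 had a probe set and 2 passed the filter (Ifna1 and Ifna2), while Ifnb1 (mean 3.99) and Ifng (mean 2.78) lay below it. Of 18 receptor and signalling genes 15 were tested. Jak1 read 8.55, 7.90 and 8.19 on chow, 7.55, 7.55 and 7.49 on HFD, and 7.79 and 7.99 on HFD after CMPF in prevention. Every HFD array lay below every chow array (17.2% of all genes). Jak1 fell by 0.68 ± 0.163 with HFD (SE, limma, adjusted p = 0.0312), where 3.83% of all genes fell. That call held without prevention chow 2 and was lost without any other single array of the 6. Over all 19 alternatives it was lost in 9, and the 3' to 5' index was higher on these HFD arrays than on chow. In reversal Jak1 was at 0.20 ± 0.163 (SE, adjusted p = 0.472) for HFD. Tyk2 was at 0.34 ± 0.131 (SE, adjusted p = 0.133) in prevention and -0.52 ± 0.131 (SE, adjusted p = 0.0525) in reversal. The difference between models (11% of all genes) passed at -0.86 ± 0.186 (SE, limma, adjusted p = 0.0226). That difference did not pass with the 3' to 5' index as a covariate.

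The type I receptor subunits Ifnar1 and Ifnar2 were at -0.39 and -0.72 for HFD in prevention and at 0.28 and 0.30 in reversal, none past the threshold. For the gamma receptor, Ifngr1 was at -0.37 and 0.11, and Ifngr2 at -0.58 and 0.75. The difference between models (11% of all genes) passed for Ifngr2 (1.33 ± 0.37 (SE, adjusted p = 0.0383)), for Jak1 (0.88 ± 0.23 (SE, adjusted p = 0.032)) and for the phosphatase Ptpn2 (-1.50 ± 0.428 (SE, adjusted p = 0.0408)). Among 13 tested genes of interferon induction, Mavs, the mitochondrial adaptor of the RNA helicases, passed for HFD in prevention. It fell by 0.45 ± 0.121 (SE, limma, adjusted p = 0.0473), where 3.83% of all genes fell. Its call was lost in 15 of the 19 alternatives. The call for Mavs was lost without any single array of its comparison, and the 3 differences without prevention chow 1, prevention chow 3, prevention HFD 1, prevention HFD 3, reversal chow 2 or reversal HFD 1. Jak1 and Ptpn2 also lost it without prevention HFD 2, Ptpn2 without reversal chow 3 or reversal HFD 3, and Ifngr2 without reversal HFD 2. With the 3' to 5' index as a covariate, none of these 3 differences passed. CMPF against vehicle on HFD moved 0 genes of these lists past the threshold in either model (0% of all genes in prevention and 0.0378% in reversal).

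Of 60 further interferon-stimulated genes 50 were tested, and 2 passed for HFD in prevention (5.57% of all genes). Phf11d (0.76 ± 0.175 (SE, adjusted p = 0.0293)) and Adar, the RNA-editing enzyme (0.47 ± 0.109 (SE, adjusted p = 0.0297)), rose with HFD in prevention, and 0 rose or fell with HFD in reversal (2.45% of all genes). The 3' to 5' index was higher on the prevention HFD arrays than on chow. Over the 19 alternatives, the call of Phf11d was lost in 8 and that of Adar in 9. Helz2 fell on HFD with CMPF against chow in reversal (-0.97 ± 0.209 (SE, adjusted p = 0.0314)), where 0.393% of all genes fell. The calls of Phf11d and Adar held without prevention chow 2 and were lost without any other single array of the 6, and that of Helz2 was lost without reversal chow 2 or any 1 of the 3 CMPF arrays. Their medians for HFD, over the 50 genes, were 0.18 in prevention and 0.07 in reversal, and for CMPF -0.16 and -0.15. They were also high in the arrays named above: 8 of the 50 were over 2-fold above the median of their model in prevention HFD 1, 6 in prevention chow 1 and 7 in reversal HFD 1.

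Of the Kupffer cell and macrophage markers, 9 of 9 were above 0 for HFD in the reversal model (54.9% of all genes). Their median was 0.84, and 0 passed the test (2.45% of all genes). Their mean level ran from 6.72 to 7.35 in reversal chow, from 7.38 to 8.12 in reversal HFD and from 7.20 to 7.89 in reversal CMPF. For CMPF in reversal 4 of the 9 were above 0 (47.5% of all genes), with a median of 0.00. In prevention 5 of 9 were above 0 for HFD (median 0.06, 50.2% of all genes) and 0 of 9 for CMPF (median -0.55, 53.2% of all genes). Of 5 tested markers of sinusoidal endothelium, 5 were above 0 for HFD in prevention (median 0.08) and 1 in reversal (median -0.39). Stab2, a scavenger receptor of that endothelium, was the one marker that passed. It was at 0.52 for HFD in prevention (limma, adjusted p = 0.049), where 5.57% of all genes passed. For the difference between models, which 11% of all genes passed, it was at -0.91 (limma, adjusted p = 0.0244). With the 3' to 5' index as a covariate neither passed (adjusted p = 0.448 and 0.28), and the first was also lost without any single array of its comparison except prevention chow 2. The part of these cells in the members' values was not tested.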

How the data were processed

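Liver RNA was hybridised to 18 Affymetrix mouse arrays, 3 in each of 6 groups named in the labels. The authors deposited log2 values, made with Affymetrix Expression Console 1.1 and RMA, per the submitters' processing notes. Which arrays were normalised together is not given in the sources used here. Arrays give no depth, and their number limits the precision.

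Of 45101 probe sets (64 of them controls), 34945 carried 1 gene symbol in the platform annotation, 932 several, and 9160 were not listed. The dimmest 40% were dropped, and each gene took its probe set with the highest mean. The fit in limma 3.58.1 (R 4.3.3) compared the groups, as a linear model of group means over 17 samples (11 residual degrees of freedom, prior 3.02), moderated by empirical Bayes and adjusted by Benjamini-Hochberg over 13228 genes, with a threshold of 0.05; the model was tested on simulated data. Same-numbered arrays deviated together (r above 0.1) in 6 of 18 pairs. Arrays of unlike number were not correlated, so these values cannot decide whether the numbers pair samples. The fit did not pair them. The highest r was 0.44, for prevention chow 1 with prevention HFD 1, and the lowest -0.37. Reversal HFD 2 with reversal CMPF 2 was at 0.39, and reversal chow 1 with reversal HFD 1 at 0.34.

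Members described in full passed a comparison or had the smallest p or widest range of their role group; Usp18, Rsad2, Gbp2, Psmb8 and B2m were added after their values were seen. Of the pathway lists, genes past the threshold (up to 4 a list and comparison) and the receptor and kinase genes were named; 1 listed gene is not reported here. The members and lists were chosen with earlier results of these data known. Alternatives covered normalisation, filters, probe sets, weights, the 3' to 5' index as a covariate, a replicate block and leaving out each array.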

Additional observations from a re-analysis of the deposited data

Results flagged for a closer look

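The HFD effect on Oasl1 differed between the models by 1.03 on the log2 scale (reversal minus prevention; limma, interaction test, adjusted p = 0.0318). The effect was 0.79 in the reversal model, where all 3 HFD arrays lay above all 3 chow arrays, and -0.24 in the prevention model, where the groups overlapped. Over the alternatives and left-out arrays the difference ran from 0.62 to 1.23. The adjusted p was 0.346 with the 3' to 5' index as a covariate. It lay between 0.0543 and 0.0866 without prevention chow 1, prevention chow 3, prevention HFD 3, reversal chow 2, reversal HFD 1 or reversal HFD 2.

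The same interaction test passed for 11 of 103 tested genes of the listed pathways that are no members (10.7%), near the 11% of all genes that passed it, so the count says nothing particular to these lists. The HFD effect was higher in reversal than in prevention, on the log2 scale, by 2.66 for Pdia3, 1.80 for Lgals9, 1.33 for Ifngr2, 1.06 for Canx, 1.01 for Irf5, 0.88 for Jak1 and 0.70 for Mavs. The difference was -1.50 for Ptpn2, -1.13 for Phf11d, -0.86 for Tyk2 and -0.72 for Adar. All 11 lost the call without prevention chow 1, without prevention chow 3 and without reversal HFD 1. With the 3' to 5' index as a covariate 0 genes passed this test, so all 11 lost it there too. The difference was also called for Stab2, a marker of sinusoidal endothelium, at -0.91 (adjusted p = 0.0244), and that call was lost with the 3' to 5' index as a covariate and without prevention chow 1, prevention chow 3, prevention HFD 3 or reversal HFD 1.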

How the results depend on the processing

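Only Oasl1 was called in the fit, for HFD in reversal and for the difference of the HFD effect, so most values had no call to lose. The first call was lost in 10 of 19 alternatives and the second in 9 of 24. In 33 settings, 3 of them chosen after seeing the data, 19 of 5240 values of members lost a call and 3 gained one. The other 5218 kept their side of the threshold and, where called, their direction, though 534 uncalled values changed sign. The number of members called for HFD in reversal was 0 under quantile normalisation, cyclic loess, the 3' to 5' index as a covariate, only the arrays of the model, only the 2 groups compared, and without both reversal HFD 1 and reversal HFD 2; it was 0 to 1 when single arrays were left out. For the difference of the HFD effect it was 0 with the index, 2 with array weights (B2m was added), 0 without reversal HFD 1 and 2, 0 without prevention chow 1 and HFD 1, and 0 to 2 with single arrays left out.

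The members' medians moved with single arrays. Without reversal HFD 1 and 2 together they were -0.33 for HFD in reversal, 0.13 for CMPF in reversal, -0.35 for the difference of the HFD effect and 0.36 for that of the CMPF effect. With single arrays left out, the medians ran from -0.32 to 0.33 for HFD in prevention, -0.44 to 0.17 for CMPF in prevention, -0.32 to 0.14 for CMPF on HFD against chow in prevention, 0.02 to 0.48 for HFD in reversal, -0.65 to -0.16 for CMPF in reversal, -0.21 to 0.10 for CMPF on HFD against chow in reversal, -0.15 to 0.62 for the difference of the HFD effect and -0.52 to 0.04 for that of the CMPF effect. The cause was not tested.

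With the replicate number as a block and all 18 arrays counted, 1 member was called for HFD in prevention, Ifi35 at 0.58 (limma, adjusted p = 0.0493), and the block changed no other call of a member. Genes called for HFD numbered 737 in prevention (0 to 2021 over the settings) and 324 in reversal (0 to 1059). They numbered 5 for CMPF in reversal (0 to 96), 265 for CMPF on HFD against chow in reversal (8 to 2730) and 1452 for the difference of the HFD effect (0 to 2797). For CMPF in prevention, CMPF on HFD against chow in prevention and the difference of the CMPF effect they were 0 in the fit and up to 98, 190 and 45 under array weights.

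For the listed pathway genes that are no members, 20 calls were made over the comparisons. Of their 433 values under the alternatives and left-out arrays, 203 lost the call and 0 changed sign; each of the 20 was lost without at least 1 single array.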
